A study of Homo sapiens with 12 samples.

Results

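The genes described here are 40 listed genes of the tight junction, of apical and basolateral polarity and of the epithelial surface, among 57820 gene identifiers counted. They were taken from a list of names that was drawn up with earlier results of these data known: 12 claudins, 4 other membrane proteins of the junction, 4 junction scaffolds, 11 polarity proteins, 5 surface adhesion, protease and inhibitor genes, 2 trafficking genes and 2 transcription factors. All 40 were matched to an identifier. RNA was sequenced from TE10 and Kyse410, established human lines of esophageal squamous cell carcinoma, each carrying either a short hairpin RNA against UHRF1 (UHRF1-shRNA) or a scramble control after stable infection. UHRF1 is an E3 ligase that recognises hemimethylated sites and takes part in the maintenance of DNA methylation. The 4 groups, TE10 and Kyse410 with each construct, had 3 libraries of polyadenylated RNA each. The number of hairpin sequences and of infected clones is not stated in the labels, and all groups, controls included, consist of infected cells.

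Tight junctions seal the space between neighbouring epithelial cells near their apical surface. Claudins form the strands and set their permeability, occludin and its MARVEL-domain relatives join them, and ZO proteins and cingulin tie the strands to actin. The Par and Crumbs complexes mark the apical side and the Scribble group the basolateral side, while the membrane protease matriptase and its partner prostasin act at the epithelial surface and are required for the barrier of skin and gut. Loss of several of these genes is a known part of the epithelial-mesenchymal transition, which the study set out to examine in these cells.

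Gene-assigned reads numbered 7857662 to 12005229 per library. Nothing in the labels ties the 3 replicates to separate cultures. The p-values therefore reflect only how these libraries vary, possibly for technical reasons. UHRF1 (ENSG00000034063), the target of the hairpin, fell from 178.5 ± 5.34 to 85.9 ± 3.49 TMM-scaled CPM (a gene's reads relative to the scaled library total) in TE10 and from 99.1 ± 3.47 to 42.5 ± 0.892 CPM in Kyse410 (mean ± SD, n = 3 each). The summed level of 6 squamous epithelial markers (KRT5, KRT14, KRT6A, KRT17, KRT13 and TP63) averaged 846.6 CPM in TE10 scramble, 645.1 CPM in TE10 shRNA, 1082.1 CPM in Kyse410 scramble and 1240.6 CPM in Kyse410 shRNA libraries, none being at 0 in any group. Most of the Kyse410 sum was KRT13, at 885.7 CPM in scramble and 1071.7 CPM in shRNA libraries. KRT5, KRT14 and KRT6A lay at 1.14, 4.39 and 12.4 CPM in Kyse410 scramble, against 67.4, 55.2 and 372.1 CPM in TE10 scramble libraries. KRT17 and TP63 lay at 81.0 and 97.5 CPM, against 67.8 and 100.6 CPM. In TE10 5 of the 6 squamous markers fell and KRT13 rose with the shRNA, while in Kyse410 3 rose, 2 fell and KRT5 was not called. The part of these keratin changes in the results below was not tested. The 5 blood cell markers summed to group means of 0.346 to 1.23 CPM. The 6 fibroblast markers summed to 46.4 and 52.2 CPM in TE10 scramble and shRNA libraries and to 120.3 and 158.0 CPM in Kyse410, and the 4 endothelial markers to 9.60, 14.2, 25.0 and 96.1 CPM in the same order. Almost all of this was COL1A1, PDGFRB and CDH5, since PDGFRA, DCN, LUM, COL1A2, VWF, KDR and TEK gave at most 6 reads in a library. CDH5, the endothelial cadherin, was counted at 9.13 and 14.1 CPM in TE10 scramble and shRNA libraries and at 24.7 and 95.7 CPM in Kyse410, and its part in the results was not tested either.

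Promoter sequence was taken from RefSeq (GRCh38.p14) for 26 of the 40 genes, which have 39 annotated starts there, as the 250 bases before each start. They were searched for CACCTG on either strand (read as CACCTG or CAGGTG), the E-box letters recognised by the ZEB and SNAI repressors of epithelial genes. At least 1 match lay in 11 of the 39 windows, or 28.2%, against 17.5% of all 35116 promoter windows. No window was available for CLDN8, CLDN9, CLDN23, MARVELD3, F11R, PARD3, PARD6B, LLGL2, SCRIB, EPCAM, ST14, SPINT2, PRSS8 or MAL2. The counts of windows therefore leave out MARVELD3, F11R, LLGL2, EPCAM, ST14, SPINT2 and PRSS8, which were higher with the shRNA in both lines (below). At least 4 matches were found in 2 of the 39 windows and in 43, or 0.12%, of all windows. Those 2 windows belong to CLDN7 and CRB3. They are printed with the windows of ELF3, whose RNA rose furthest in TE10, and of CLDN4, the claudin with the highest level per kilobase, with each match in capitals. CLDN7 has 2 annotated starts, and the window of the first has 0 matches and 9 CpG dinucleotides. Which start these cells use was not tested. The CLDN7 window with matches (chr17:7262479-7262728, minus strand, before the second start) has them begin 174, 135, 20 and 9 bases before the start.
CLDN7: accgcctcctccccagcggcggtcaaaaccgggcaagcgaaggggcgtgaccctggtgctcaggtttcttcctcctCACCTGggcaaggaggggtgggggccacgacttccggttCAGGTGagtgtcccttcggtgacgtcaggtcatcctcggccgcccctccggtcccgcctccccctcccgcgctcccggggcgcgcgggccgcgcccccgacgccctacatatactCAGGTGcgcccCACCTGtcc
The CRB3 window (chr19:6464021-6464270, plus strand) has matches at 228, 208, 147, 89 and 60 bases before the start.
CRB3: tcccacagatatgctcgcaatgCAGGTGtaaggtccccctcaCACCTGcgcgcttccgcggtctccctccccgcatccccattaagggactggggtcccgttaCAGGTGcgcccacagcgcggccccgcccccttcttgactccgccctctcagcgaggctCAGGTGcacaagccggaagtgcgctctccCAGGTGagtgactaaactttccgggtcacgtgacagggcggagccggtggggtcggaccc
The ELF3 window (chr1:202010337-202010586, plus strand) has 1 match, 120 bases before the start.
ELF3: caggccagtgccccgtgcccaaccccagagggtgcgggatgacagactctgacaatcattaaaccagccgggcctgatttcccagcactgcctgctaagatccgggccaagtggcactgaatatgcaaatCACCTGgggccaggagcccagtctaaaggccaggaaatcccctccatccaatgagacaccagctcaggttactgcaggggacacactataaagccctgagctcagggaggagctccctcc
The CLDN4 window (chr7:73830746-73830995, plus strand) has 0 matches.
CLDN4: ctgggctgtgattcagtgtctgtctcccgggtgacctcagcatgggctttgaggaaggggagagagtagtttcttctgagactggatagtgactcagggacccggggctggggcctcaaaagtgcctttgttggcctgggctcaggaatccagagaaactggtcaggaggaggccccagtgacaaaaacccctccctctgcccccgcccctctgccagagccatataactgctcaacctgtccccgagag
The CLDN7 and CRB3 windows hold 25 and 20 CpG dinucleotides, the ELF3 and CLDN4 windows 4 each, and the median is 19 over the 39 windows and 11 over all promoters. A match describes letters in the window and does not show binding.

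The scramble controls give the starting point of each line. On the scale of CPM per kilobase of exon, which allows genes to be compared, MAL2 was the highest of the 40 genes in Kyse410 (76.4) and EPCAM in TE10 (52.3), followed in TE10 by SPINT2 (43.6), MAL2 (40.2) and SCRIB (35.4). CLDN4 was the most abundant claudin in both lines, at 19.8 CPM per kb in TE10 and 26.6 in Kyse410. Of the RNA per kilobase summed over the 12 listed claudins, CLDN4 made up 66.4 ± 3.24% in TE10 controls. In Kyse410 controls it made up 56.4 ± 2.80% (SD, n = 3). Claudins outside the list, such as CLDN22 (1.62 CPM per kb in TE10 and 2.02 in Kyse410 controls), are not in this sum. The next claudin differed between the lines: CLDN12 held 19.2 ± 0.815% in TE10, and CLDN7 held 13 ± 1.87% in Kyse410.

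Of the 40 genes, 7 had too few reads to test. They were CLDN1, CLDN6, CLDN8, CLDN11, CLDN23, CGNL1 (paracingulin) and RAB25, a small GTPase of apical recycling, with at most 14 reads in any library. CLDN8 had 0 reads in all 12 libraries, which allows up to 0.0264 CPM (3 reads of the summed total, counting error only). RAB25 had 0 reads in the scramble libraries of both lines, 1 read in the TE10 shRNA libraries and 4 in those of Kyse410. CLDN1, a main claudin of stratified epithelia, gave 1 read over the 3 TE10 scramble libraries and 0 over the 3 TE10 shRNA libraries. In Kyse410 CLDN1 gave 5 reads with the scramble and 14 with the shRNA, or 2.87 times as many per gene read (95% counting interval 0.978 to 10.2, which includes no change).

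**Figure D1:**
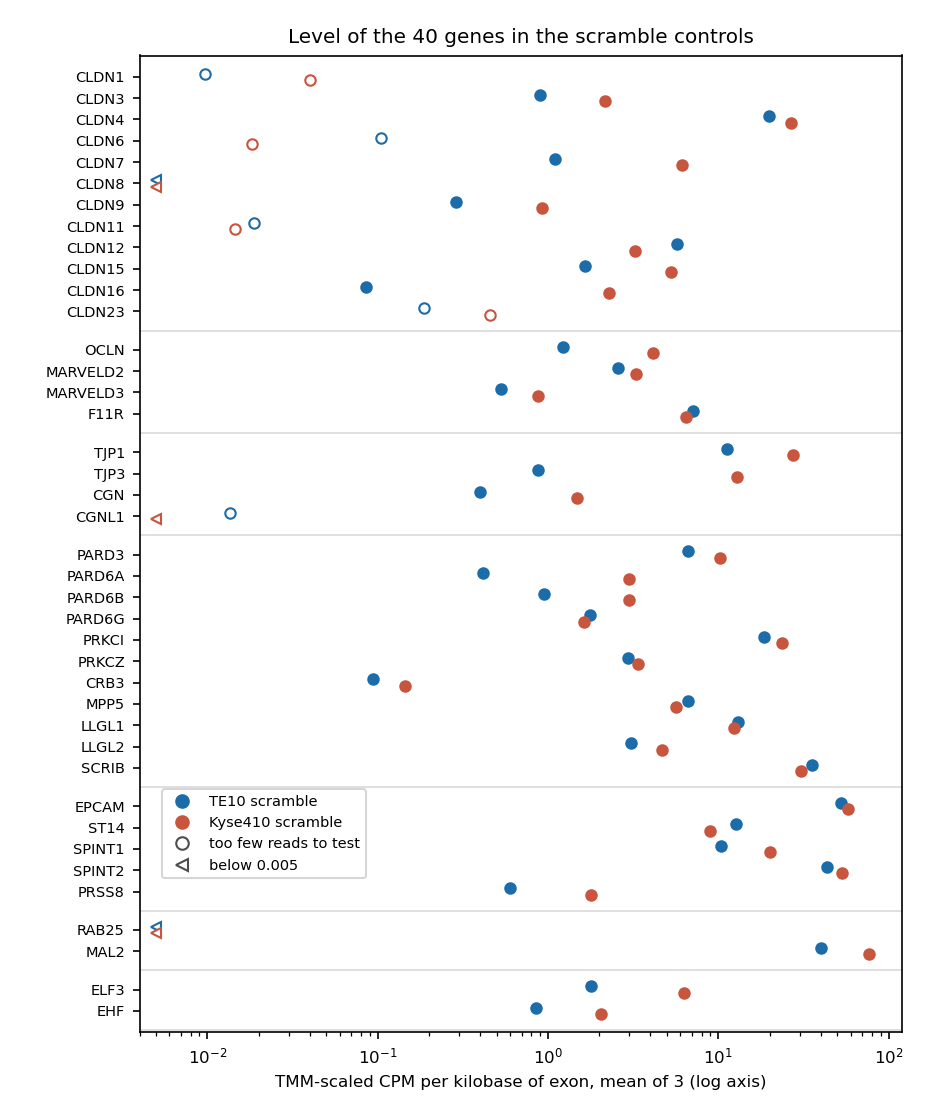
Mean level of each of the 40 genes in the scramble controls of TE10 (blue) and Kyse410 (red), in TMM-scaled CPM per kilobase of exon on a log axis. Open symbols mark genes with too few reads to test and triangles levels below 0.005. Most red points lie to the right of the blue ones, furthest for CLDN16 and TJP3.

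Kyse410 controls had more RNA of most of these genes than TE10 controls. Of the 33 tested genes, 24 were higher and 4 lower in Kyse410, with 5 not called at an adjusted p under 0.05, against a background of 73.7% of all 16060 genes called, 36.7% higher and 37.1% lower. The median log2 difference was 0.72 for the 33 genes and 0.00 for all genes, and 14 of the 33 were called with at least a 2-fold difference, as were 28.2% of all genes. As this is bulk RNA, more cells with a transcript and more transcript per cell cannot be told apart here or in any comparison that follows. These scramble libraries are also the controls of the 2 knockdown comparisons.

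TJP3, which encodes the scaffold ZO-3, lay at 3.36, 4.52 and 3.18 CPM in TE10 controls and at 58.5, 54.3 and 48.7 CPM in Kyse410 controls. The lines were far apart, by a log2 difference of 3.87 (SE 0.121; edgeR quasi-likelihood test, Benjamini-Hochberg adjusted p = 2.45e-33). CLDN7, a claudin that binds EPCAM, lay at 2.97, 2.62 and 2.65 CPM in TE10 and at 15, 13.5 and 17.5 CPM in Kyse410, a log2 difference of 2.48 (SE 0.175; edgeR adjusted p = 2.91e-18). CGN, which encodes the actomyosin-linked scaffold cingulin, lay at 2.46, 2.97 and 2.54 CPM in TE10 and at 10.6, 9.90 and 9.0 CPM in Kyse410. No TE10 library reached a Kyse410 library, and the CGN difference was 1.89 (SE 0.231; edgeR adjusted p = 3.10e-10). ELF3, an epithelial ETS transcription factor, lay at 12.3, 11.8 and 14.6 CPM in TE10 and at 44.3, 45.1 and 46.8 CPM in Kyse410. Its log2 difference was 1.81 (SE 0.0910; edgeR adjusted p = 3.12e-24). Occludin followed the same order, with OCLN at 6.98, 7.37 and 10.5 CPM in TE10 and at 25.1, 30.5 and 28.1 CPM in Kyse410 (log2 difference 1.73, SE 0.134). CLDN15, a cation-pore claudin, lay at 5.17, 4.16 and 5.08 CPM in TE10 and at 15.6, 14.8 and 15.4 CPM in Kyse410 (log2 difference 1.67, SE 0.157). All 6 of these genes had groups without overlap. They were picked for the largest called differences, so this separation adds nothing to the calls, and 73.7% of all genes were called here.

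By role, 6 of 7 tested claudins were higher in Kyse410 and CLDN12 was lower (log2 −0.82). CLDN16, a claudin of kidney magnesium transport, was counted mostly in Kyse410, with 266 reads over its 3 control libraries against 8 in TE10 (log2 4.65, SE 0.347). CLDN16 and PARD6A passed the filter on low counts only through Kyse410, where they are high. Their TE10 libraries reached at most 0.424 and 0.951 CPM. OCLN, MARVELD2 and MARVELD3 were higher, and F11R, which encodes the adhesion molecule JAM-A, was not called (log2 −0.14; edgeR adjusted p = 0.107) except without Kyse410 scramble replicate 2 (−0.21; edgeR adjusted p = 0.0323). The 3 tested scaffolds were all higher in Kyse410, TJP1 (ZO-1) by 1.29. Among 11 polarity genes 5 were higher (PARD3, PARD6A, PARD6B, PRKCI and LLGL2), MPP5 (−0.25) and SCRIB (−0.21) were lower, and PARD6G, PRKCZ, CRB3 and LLGL1 were not called. PRKCZ (0.20) was called higher in Kyse410 with RLE size factors (0.22; edgeR adjusted p = 0.0413), with library totals (0.29; edgeR adjusted p = 0.00943) and without TE10 scramble replicate 2 (0.35; edgeR adjusted p = 0.00412). ST14, which encodes matriptase, was the surface gene that was lower in Kyse410 (log2 −0.50), while its inhibitors SPINT1 (0.96) and SPINT2 (0.28) and its partner PRSS8, prostasin (1.56), were higher. The higher EPCAM in Kyse410 (log2 0.15) passed with an edgeR adjusted p of 0.00959, and lost the call without TE10 scramble replicate 2 (edgeR adjusted p = 0.0980) or Kyse410 scramble replicate 2 (edgeR adjusted p = 0.0727). The lower MPP5 lost its call with library totals in place of TMM (−0.15, edgeR adjusted p = 0.0864) and with DESeq2 (adjusted p = 0.0600).

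The knockdown comparisons ask how these genes differ between shRNA and scramble cells within a line. In TE10, 17 of the 33 tested genes were higher with the shRNA, 5 were lower and 11 were not called, against 38.8% of all tested genes called (18.8% higher and 20.0% lower). Their median log2 fold change was 0.44, against 0.00 over all genes. In Kyse410, 15 were higher, 8 lower and 10 not called, against 49.3% of all genes (22.6% higher and 26.7% lower), and the median was 0.17 against −0.03. At least a 2-fold change was called for 5 of the 33 genes in each line, and for 6.05% of all genes in TE10 and 7.13% in Kyse410. Higher in both lines were 13 genes: CLDN4, CLDN7, MARVELD3, F11R, TJP3, PRKCZ, LLGL2, EPCAM, ST14, SPINT1, SPINT2, PRSS8 and ELF3. They are 76.5% of the 17 TE10 genes and 86.7% of the 15 Kyse410 genes. Over all genes, 1117 were called higher in both lines, out of 3019 called higher in TE10 and 3627 in Kyse410. These 1117 are 6.96% of all 16060 tested genes, a base unlike that of the 2 shares above. MPP5 alone was lower in both lines (9.03% of all genes), and CGN alone was called in opposite directions (7.92% of all genes).

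**Figure D2:**
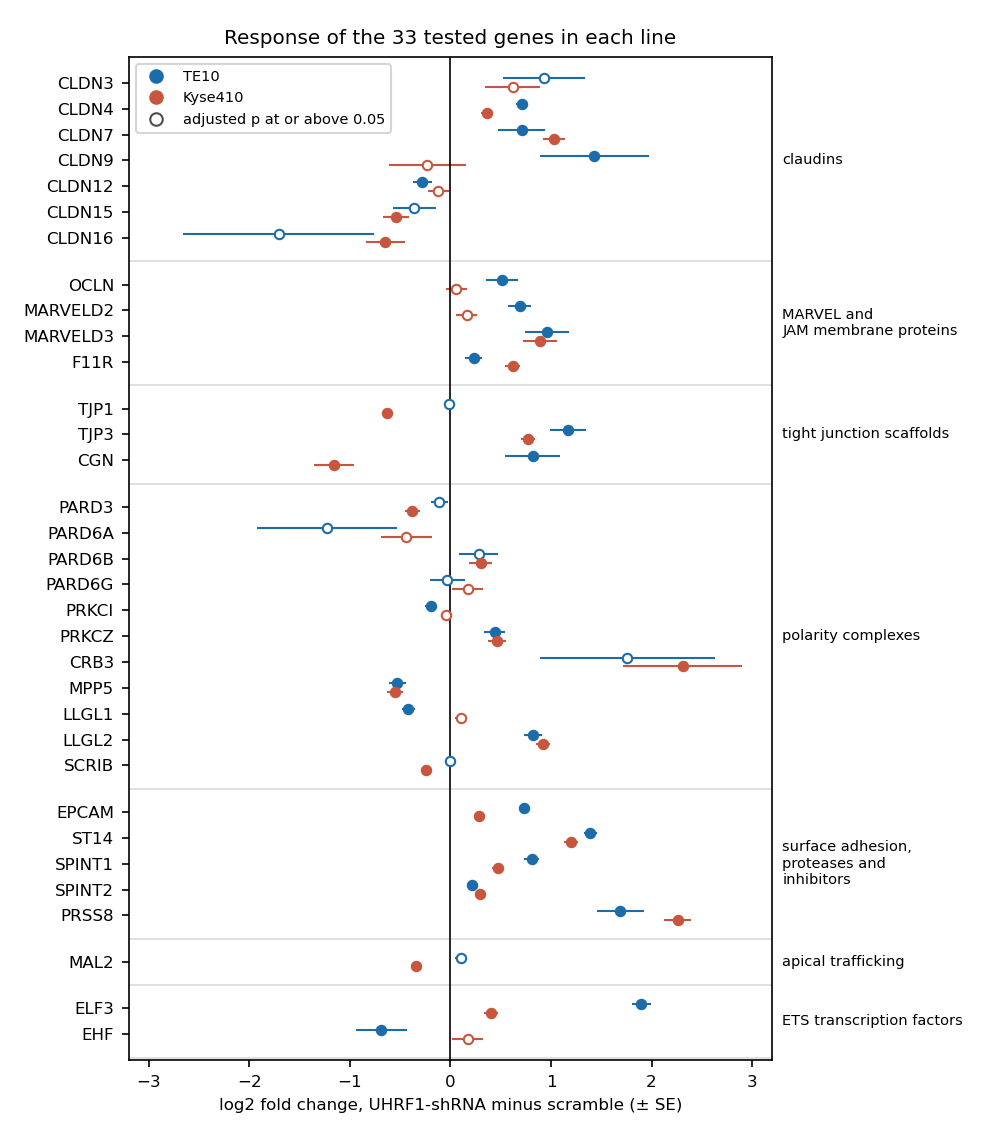
Log2 fold change (shRNA minus scramble) of the 33 tested genes in TE10 (blue) and Kyse410 (red) with SE bars, by role. Filled points passed an adjusted p under 0.05. The 5 surface genes lie to the right of zero in both lines, while scaffolds and polarity genes fall on both sides.

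All 5 surface genes rose in both lines. ST14, the matriptase gene, lay at 53.5, 54.3 and 58.1 CPM in the TE10 scramble libraries and at 142.5, 150.4 and 142.4 CPM with the shRNA. In Kyse410 ST14 lay at 43.3, 40.6 and 33.4 CPM with the scramble and at 95.5, 87.7 and 86.9 CPM with the shRNA. Every shRNA library exceeded every scramble library of its line, by log2 1.39 in TE10 (SE 0.0649; edgeR adjusted p = 2.25e-24) and 1.20 in Kyse410 (SE 0.0669; edgeR adjusted p = 1.80e-21). As in the controls, such separation adds nothing to the calls, here and below, since genes shown by library were picked for large called changes. PRSS8, which encodes prostasin, the membrane-anchored protease of the same cascade, lay at 1.94, 1.43 and 2.01 CPM in TE10 scramble and at 6.49, 5.88 and 5.04 CPM in TE10 shRNA libraries. In Kyse410 PRSS8 went from 4.63, 5.41 and 6.06 CPM to 25.0, 24.2 and 27.6 CPM. PRSS8 thus rose by log2 1.69 in TE10 (SE 0.234) and 2.26 in Kyse410 (SE 0.134; edgeR adjusted p = 2.35e-20), and the difference between the lines was not called (0.57, SE 0.293; edgeR adjusted p = 0.121).

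SPINT1 and SPINT2 encode the Kunitz-type inhibitors of matriptase and prostasin. SPINT1 lay at 37.0, 35.2 and 37.9 CPM in TE10 scramble and at 66.4, 62.0 and 64.5 CPM in TE10 shRNA libraries. In Kyse410 SPINT1 lay at 71.1, 64.8 and 78.4 CPM with the scramble and at 103.4, 99.4 and 94.8 CPM with the shRNA. The rise was 0.81 in TE10 (SE 0.0743; edgeR adjusted p = 3.80e-13) and 0.47 in Kyse410 (SE 0.0599; edgeR adjusted p = 2.30e-09), smaller in Kyse410 (difference −0.33, SE 0.0957; edgeR adjusted p = 0.00411). SPINT2 rose by 0.21 in TE10 and 0.29 in Kyse410. EPCAM, a surface adhesion protein that matriptase can cleave, rose from 131.8 ± 5.96 to 218.1 ± 12.7 CPM in TE10 and from 145.9 ± 9.24 to 176.9 ± 7.56 CPM in Kyse410 (SD, n = 3). Its rise of 0.73 in TE10 exceeded the 0.28 in Kyse410 (difference −0.45, SE 0.0707; edgeR adjusted p = 7.25e-07).

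The claudins divided. CLDN4 rose in both lines, from 93.0 ± 3.58 to 152.1 ± 7.73 CPM in TE10 (log2 0.71) and from 125.2 ± 10.8 to 161.0 ± 9.60 CPM in Kyse410 (log2 0.36), with a smaller rise in Kyse410 (difference −0.35, SE 0.0779; edgeR adjusted p = 2.86e-04). CLDN7 lay at 5.6, 4.22 and 3.58 CPM in TE10 shRNA libraries, all above the TE10 controls given above. In Kyse410 shRNA libraries it lay at 34.7, 27.9 and 31.6 CPM, again above every control. The CLDN7 rise was 1.03 in Kyse410 (SE 0.110; edgeR adjusted p = 2.16e-11) and 0.71 in TE10 (SE 0.234; edgeR adjusted p = 0.0131). The TE10 call of CLDN7 was lost without TE10 shRNA replicate 1 (0.54; edgeR adjusted p = 0.108). The share of CLDN7 in claudin RNA per kilobase was 13 ± 1.87% with the scramble and 21.2 ± 1.84% with the shRNA in Kyse410, and that of CLDN4 in TE10 was 66.4 ± 3.24% and 75.3 ± 1.16%. The CLDN7 share in TE10 changed little (3.69 ± 0.0847% and 4.16 ± 0.818%), as did that of CLDN4 in Kyse410 (56.4 ± 2.80% and 57.5 ± 1.88%).

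CLDN12, CLDN15 and CLDN16 fell where they were called. CLDN12 fell by 0.28 in TE10 (SE 0.0955), but without TE10 shRNA replicate 1 or scramble replicate 1 the edgeR adjusted p was 0.212 or 0.125, and with DESeq2 the adjusted p was 0.0909. CLDN15 fell by 0.54 in Kyse410 (SE 0.131; edgeR adjusted p = 4.60e-04), with shRNA libraries at 12, 10.1 and 9.33 CPM below every control. CLDN16 fell by 0.65 in Kyse410 (SE 0.194; edgeR adjusted p = 0.00452), and missed the threshold with DESeq2 (adjusted p = 0.0534). CLDN9 was called higher in TE10 by 1.43 on few reads, 14 with the scramble and 35 with the shRNA, and was not called in Kyse410 (−0.23). That CLDN9 call was lost without TE10 shRNA replicate 2, scramble replicate 2 or scramble replicate 3 (0.78 and edgeR adjusted p = 0.256 for the last) and with DESeq2 (adjusted p = 0.0697). CLDN3 was called in neither line (0.93 in TE10 and 0.62 in Kyse410; edgeR adjusted p = 0.0615 and 0.0543), but close to the threshold. In Kyse410 CLDN3 passed with RLE size factors, library totals, no filter on low counts, a fit of the 2 groups and the replicate block (edgeR adjusted p = 0.0491, 0.0476, 0.0449, 0.0139 and 0.0451). It also passed there when TE10 shRNA replicate 1 or TE10 scramble replicate 1 or 2 was left out (edgeR adjusted p = 0.0462, 0.0332 and 0.0422). In TE10 CLDN3 passed with the block (edgeR adjusted p = 0.0464) and without shRNA replicate 2 (edgeR adjusted p = 0.0358) or scramble replicate 1 (1.89; edgeR adjusted p = 0.00123), and was 0.52 without scramble replicate 2.

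All 4 of the other membrane proteins rose in TE10, and 2 of them in Kyse410. MARVELD3, a relative of occludin, lay at 3.62, 3.80 and 2.86 CPM in TE10 scramble and at 7.51, 4.98 and 7.43 CPM in TE10 shRNA libraries. In Kyse410 it lay at 5.36, 4.79 and 6.73 CPM with the scramble and at 10.9, 10.2 and 10.3 CPM with the shRNA. MARVELD3 rose by 0.96 (SE 0.215; edgeR adjusted p = 2.68e-04) and 0.89 (SE 0.166; edgeR adjusted p = 1.14e-05), without overlap in either line. MARVELD2, which encodes tricellulin, the protein of tricellular contacts, lay at 12.7, 14.0 and 14.8 CPM in TE10 scramble and at 22.1, 21.6 and 23.7 CPM in TE10 shRNA libraries. In Kyse410 the MARVELD2 groups overlapped, at 18.4, 17.7 and 16.6 CPM with the scramble and 21.3, 17.9 and 20.1 CPM with the shRNA. Its response was 0.69 in TE10 and 0.16 in Kyse410, smaller in Kyse410 (difference −0.53, SE 0.155; edgeR adjusted p = 0.00478).

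F11R (JAM-A) went the other way: its rise was 0.23 in TE10 and 0.62 in Kyse410 (difference 0.39, SE 0.111; edgeR adjusted p = 0.00425). The TE10 rise of F11R was lost without TE10 shRNA replicate 2, scramble replicate 1 or scramble replicate 3 (edgeR adjusted p = 0.0649, 0.0798 and 0.0816) and without the filter on low counts (0.22; edgeR adjusted p = 0.0527). OCLN, which encodes occludin, was called higher in TE10 (0.51, SE 0.161; edgeR adjusted p = 0.00878), but its groups overlapped, since shRNA replicate 3 lay at 8.49 CPM and scramble replicate 3 at 10.5 CPM. Leaving out any of replicates 1 and 2 of either TE10 group gave an edgeR adjusted p of 0.0566 to 0.0655 for OCLN. In Kyse410 OCLN was at 27.9 ± 2.70 CPM with the scramble and 29 ± 1.72 CPM with the shRNA (SD, n = 3), and was not called (log2 0.06).

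The scaffolds responded unequally. TJP3 (ZO-3) lay at 9.03, 7.54 and 8.36 CPM in TE10 shRNA libraries and at 95, 88.6 and 92.6 CPM in Kyse410 shRNA libraries, above every control of its line. It rose by 1.17 in TE10 (SE 0.181; edgeR adjusted p = 4.15e-07) and by 0.77 in Kyse410 (SE 0.0675; edgeR adjusted p = 3.78e-14). TJP1 (ZO-1) lay at 125.3, 132.1 and 125.2 CPM in TE10 scramble and at 118.7, 136.0 and 125.6 CPM in TE10 shRNA libraries, which overlap. In Kyse410 TJP1 fell from 298.9, 304.8 and 329.2 CPM to 198.7, 206.5 and 196.1 CPM. The Kyse410 libraries separated fully, a fall by 0.63 (SE 0.0441; edgeR adjusted p = 1.08e-17), and the lines differed by −0.62 (SE 0.0683; edgeR adjusted p = 9.90e-11). TJP1 stayed above TE10 in the Kyse410 shRNA libraries.

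CGN (cingulin) was called in opposite directions. In TE10 shRNA libraries CGN lay at 2.54, 4.09 and 7.56 CPM, the first of which is inside the range of the controls (2.46, 2.97 and 2.54 CPM). In Kyse410 it lay at 4.84, 4.83 and 3.36 CPM with the shRNA, all below the controls (10.6, 9.90 and 9.0 CPM). In Kyse410 CGN fell by 1.16 on the log2 scale (SE 0.200; edgeR adjusted p = 2.43e-06). The rise in TE10 was 0.82 (SE 0.273; edgeR adjusted p = 0.0138) and rested on shRNA replicate 3, without which it was 0.32 (edgeR adjusted p = 0.433). The lines differed by −1.99 (SE 0.339; edgeR adjusted p = 3.64e-06), and the difference was called in each of the 12 fits that left out 1 library.

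**Figure D3:**
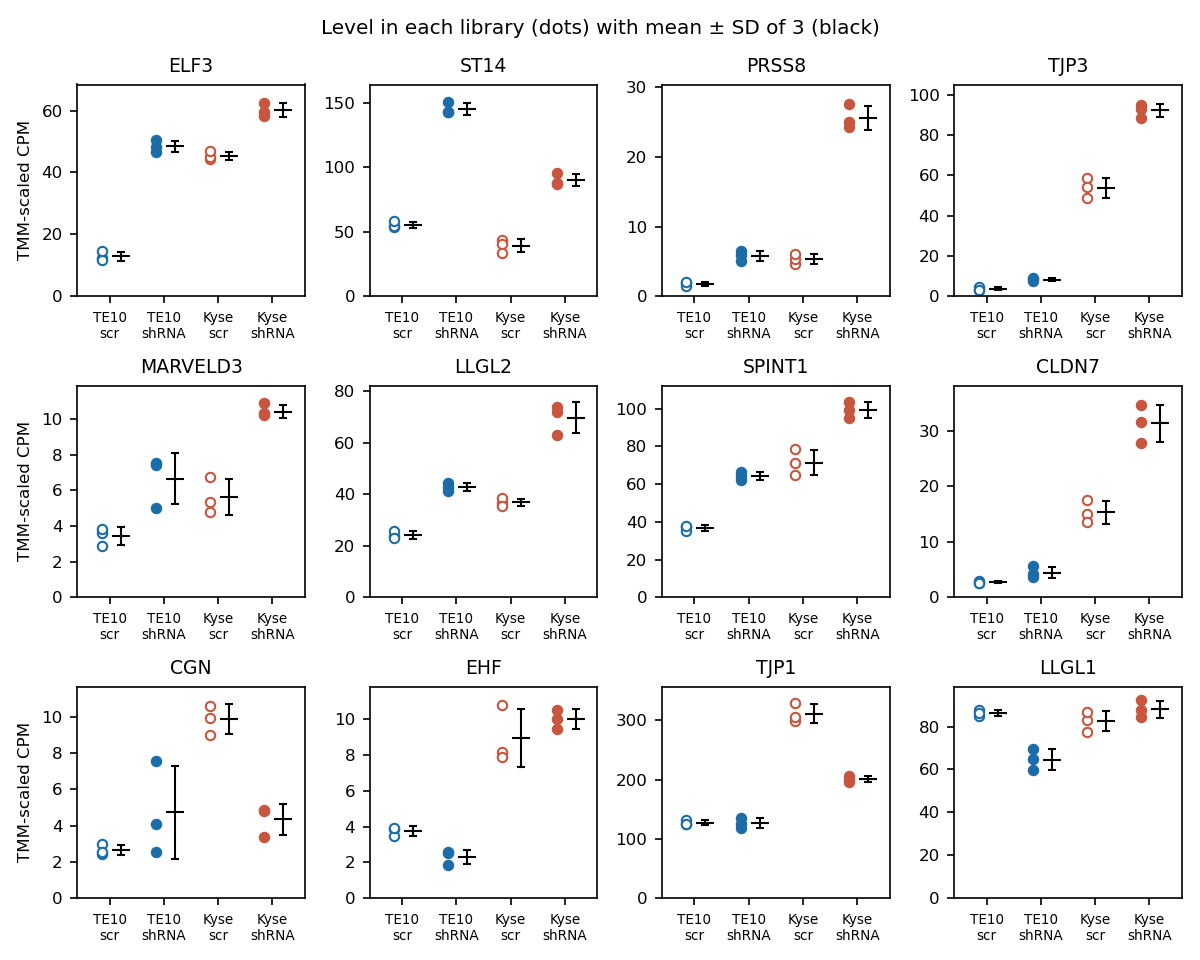
TMM-scaled CPM of 12 genes in every library (dots, open for scramble and filled for shRNA; blue for TE10, red for Kyse410) with mean ± SD of 3 in black. ST14 and PRSS8 step up in both lines, ELF3 mainly in TE10, and CGN falls in Kyse410 while its 3 TE10 shRNA libraries spread from 2.54 to 7.56 CPM.

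Of the 11 polarity genes, 2 rose and 3 fell in TE10 (45.5% called, against 38.8% of all genes), and 4 rose and 3 fell in Kyse410 (63.6%, against 49.3%). LLGL2, a basolateral protein of the Scribble group, lay at 23.8, 25.9 and 23.1 CPM in TE10 scramble and at 44.5, 41.4 and 42.7 CPM in TE10 shRNA libraries. In Kyse410 LLGL2 lay at 36.7, 38.5 and 35.6 CPM with the scramble and at 63.0, 74.1 and 72.2 CPM with the shRNA. It rose by 0.82 in TE10 (SE 0.0870; edgeR adjusted p = 2.79e-11) and 0.92 in Kyse410 (SE 0.0708; edgeR adjusted p = 4.38e-16), with no overlap. Its paralog LLGL1 behaved differently, at 85.0, 87.6 and 86.2 CPM in TE10 scramble and 65.0, 59.7 and 69.3 CPM in TE10 shRNA libraries. In Kyse410 LLGL1 overlapped, at 77.5, 83.1 and 86.7 CPM with the scramble and 87.5, 92.3 and 84.5 CPM with the shRNA. LLGL1 fell by 0.42 in TE10 (SE 0.0635; edgeR adjusted p = 3.35e-07), was not called in Kyse410 (0.10), and differed between the lines by 0.52 (SE 0.0856; edgeR adjusted p = 1.96e-06). The third gene of this group, SCRIB, was not called in TE10 (log2 0.00) and fell by 0.24 in Kyse410 (SE 0.0432), a difference of −0.24 (SE 0.0613; edgeR adjusted p = 0.00133).

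The kinase genes of the Par complex also parted. PRKCZ, an atypical protein kinase C gene, rose by 0.44 in TE10 and 0.46 in Kyse410, while PRKCI, the other, fell by 0.19 in TE10 and was not called in Kyse410 (−0.04). The PRKCI fall lost its call without TE10 shRNA replicate 1 (−0.14; edgeR adjusted p = 0.109). PARD3, the scaffold of the complex, fell by 0.38 in Kyse410 and was not called in TE10 (−0.11). PARD6B rose by 0.30 in Kyse410 with overlapping groups, and was not called without Kyse410 shRNA replicate 2 or 3 or scramble replicate 1 or 3 (edgeR adjusted p = 0.0897, 0.124, 0.0659 and 0.125) or with DESeq2 (adjusted p = 0.132). PARD6A and PARD6G were called in neither line.

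In the Crumbs complex the apical membrane protein and its partner moved apart in Kyse410. CRB3, whose promoter window is printed above, had 8 reads over the Kyse410 scramble libraries and 41 over the shRNA libraries, or 5.26 times as many per gene read (95% counting interval 2.43 to 13). The fitted CRB3 rise was 2.31 (SE 0.592; edgeR adjusted p = 9.20e-04), from 0.231 ± 0.245 to 1.26 ± 0.153 CPM. On these few reads the CRB3 rise was 3.51 without Kyse410 scramble replicate 1 and 1.78 without scramble replicate 3, and was called in both fits. CRB3 passed the filter on low counts only through the Kyse410 shRNA libraries (1.09, 1.39 and 1.30 CPM). All other libraries lay at or below 0.895 CPM, so CRB3 was tested only because of the group in which it is high. In TE10 4 and 13 CRB3 reads were counted, and the fitted 1.76 was not called (edgeR adjusted p = 0.105). MPP5 (PALS1), which binds CRB3, fell in both lines, from 58.3 ± 2.66 to 40.3 ± 4.81 CPM in TE10 (−0.53, SE 0.0841) and from 49.3 ± 4.02 to 33.5 ± 4.0 CPM in Kyse410 (−0.55, SE 0.0814). The MPP5 groups did not overlap in either line.

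MAL2, a membrane protein of apical transport, fell by 0.34 in Kyse410 (SE 0.0443; edgeR adjusted p = 4.94e-09), where 256.8, 274.3 and 255.1 CPM in the scramble libraries stood against 191.3, 212.7 and 216.7 CPM with the shRNA. It was not called in TE10 (0.10), and the lines differed by −0.44 (SE 0.0674; edgeR adjusted p = 4.70e-07).

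The 2 ETS factors moved in opposite directions in TE10. ELF3 lay at 50.4, 46.6 and 48.2 CPM in TE10 shRNA libraries, far above the controls (12.3, 11.8 and 14.6 CPM), and at 58.2, 59.6 and 62.6 CPM in Kyse410 shRNA libraries, above the controls (44.3, 45.1 and 46.8 CPM). Its rise was 1.90 in TE10 (SE 0.0935; edgeR adjusted p = 1.99e-23) and 0.40 in Kyse410 (SE 0.0685; edgeR adjusted p = 1.85e-06). The ELF3 response was smaller in Kyse410 (difference −1.5, SE 0.118; edgeR adjusted p = 2.76e-15). The TE10 shRNA libraries thus overlapped the Kyse410 controls. EHF, the related factor, lay at 3.88, 3.45 and 3.92 CPM in TE10 scramble and at 2.54, 2.56 and 1.86 CPM in TE10 shRNA libraries. In Kyse410 EHF overlapped, at 8.13, 10.8 and 7.86 CPM with the scramble and 10.0, 9.42 and 10.5 CPM with the shRNA. EHF fell by 0.69 in TE10 (SE 0.254; edgeR adjusted p = 0.0271), was not called in Kyse410 (0.17), and differed by 0.85 between the lines (SE 0.296; edgeR adjusted p = 0.0185). The TE10 call for EHF was lost without TE10 shRNA replicate 3, scramble replicate 1 or scramble replicate 3 (edgeR adjusted p = 0.121, 0.0594 and 0.0751) and with DESeq2 (adjusted p = 0.0825). The EHF difference was lost without TE10 shRNA replicate 3 (edgeR adjusted p = 0.0690) and with DESeq2 (adjusted p = 0.0677).

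Tested directly, the response differed between the lines for 13 of the 33 genes, 3 of them more positive in Kyse410 (F11R, LLGL1 and EHF) and 10 more negative, against 38.9% of all genes called (19.0% and 19.9%). The median difference was −0.07 for the 33 genes and −0.01 for all genes. The 20 genes not called include ST14, PRSS8, LLGL2, MARVELD3, TJP3, PRKCZ and MPP5, and a missed threshold does not show equal responses. ST14 passed without Kyse410 shRNA replicate 1 or scramble replicate 3 (−0.23 and −0.29; edgeR adjusted p = 0.0459 and 0.0112), and TJP3 without TE10 scramble replicate 2 (−0.58; edgeR adjusted p = 0.0393). OCLN passed with the replicate block (−0.45; edgeR adjusted p = 0.0494). PARD3 passed with RLE size factors and with the block (both −0.28; edgeR adjusted p = 0.0456 and 0.0346). Over the fits that left out 1 library, the edgeR adjusted p ran from 0.00535 to 0.214 for OCLN. It ran from 0.00719 to 0.195 for PARD3 and from 0.0120 to 0.294 for PRKCI. For LLGL2 the difference was 0.09 (SE 0.113) and for MARVELD3 −0.07 (SE 0.271).

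**Figure D4:**
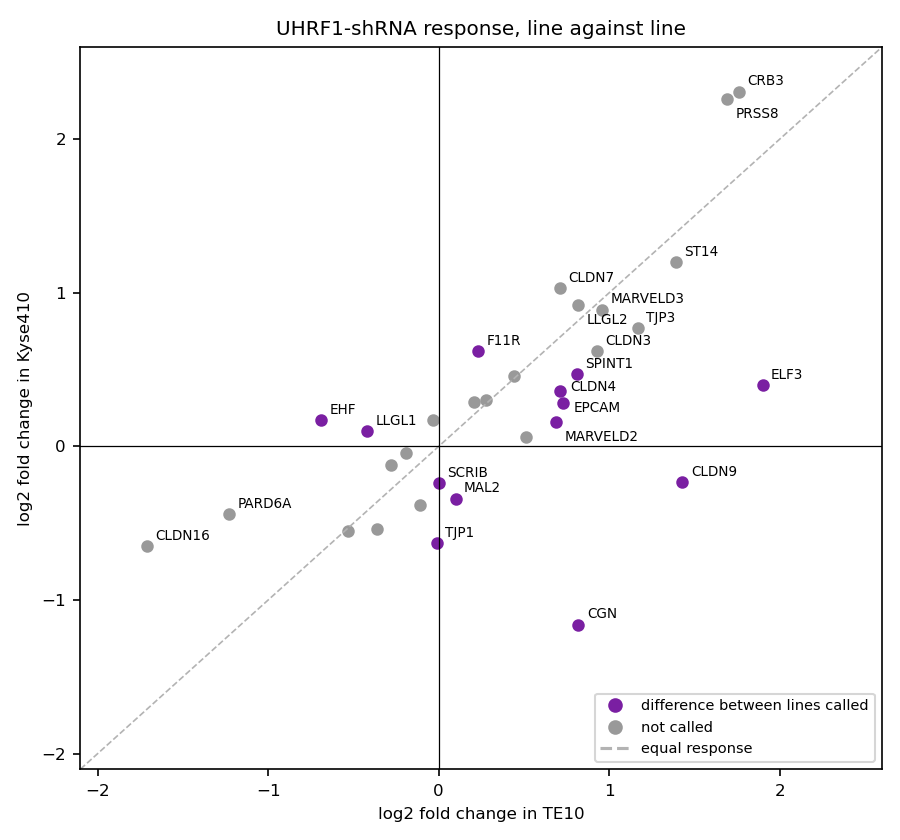
Log2 fold change with the shRNA in TE10 (horizontal) and Kyse410 (vertical) for the 33 tested genes, purple where the difference between the lines was called. The dashed line marks equal responses. ELF3, CLDN9 and CGN lie far below the line, and EHF and LLGL1 above it.

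Other genes of the same pathways, from lists of names, are given for context. Of 32 other tight junction genes 19 were tested, of which 3 rose and 7 fell in TE10 (median −0.13) and 4 rose and 7 fell in Kyse410 (median −0.05). The called shares, 52.6% and 57.9%, stood against 38.8% and 49.3% of all genes. RAB13, a GTPase of junction assembly, fell by 1.03 in TE10 (SE 0.109), MAGI1, a junction scaffold, fell by 0.73 (SE 0.153), and LSR, which recruits tricellulin, rose by 0.60 (SE 0.0630). In Kyse410 AMOTL1, an angiomotin relative, rose by 0.55 (SE 0.0381), and CXADR, the junctional coxsackie and adenovirus receptor, fell by 0.43 (SE 0.0897). AMOTL1 and CXADR were called the other way in TE10 (−0.28 and 0.47).

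Of 29 other polarity genes 27 were tested, of which 5 rose and 8 fell in TE10 (median 0.03) and 7 rose and 11 fell in Kyse410 (median −0.09), or 48.1% and 66.7% called against 38.8% and 49.3% of all genes. DLG4, of the Discs large scaffolds, fell by 1.33 in TE10 (SE 0.167) and CDC42, the GTPase that activates Par6, fell by 0.47 (SE 0.0453), whereas EZR (ezrin), the apical actin linker, rose by 0.41 (SE 0.0356). In Kyse410 NHERF1, the ezrin-binding scaffold, rose by 0.78 (SE 0.0749), TIAM1, a Rac exchange factor that binds PARD3, rose by 0.59 (SE 0.0767), and DLG1 fell by 0.57 (SE 0.0498).

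Of 36 other epithelial surface genes and epithelial regulators 24 were tested, of which 14 rose and 2 fell in TE10 (median 0.46) and 14 rose and 4 fell in Kyse410 (median 0.51). The called shares were 66.7% and 75%, against 38.8% and 49.3% of all genes. ESRP1, an epithelial splicing regulator, rose by 1.0 in TE10 (SE 0.0994) and 0.84 in Kyse410 (SE 0.0749). FXYD3, a regulator of the sodium pump, rose by 0.94 in TE10 (SE 0.0740). In Kyse410 ERBB3, a receptor of the EGF receptor family, rose by 2.67 (SE 0.222), the serine protease gene PRSS22 by 1.0 (SE 0.109) and the mucin gene MUC1 by 0.97 (SE 0.0890). OVOL1 and GRHL3, epithelial transcription factors picked after their values were seen, were low in the controls. OVOL1 had 4 reads over the TE10 scramble libraries and 72 with the shRNA, and 13 and 148 in Kyse410 (log2 4.20, SE 0.524, and 3.47, SE 0.368). It passed the filter on low counts only through the shRNA libraries, as no scramble library exceeded 0.663 CPM. GRHL3 went from 0.880 ± 0.350 to 9.0 ± 0.418 CPM in TE10 and from 1.11 ± 0.315 to 3.10 ± 0.168 CPM in Kyse410 (SD, n = 3). Not all regulators of the list rose. In Kyse410 KLF4 went from 184.6 ± 1.77 to 99.2 ± 4.02 CPM and GRHL1 from 29.5 ± 1.47 to 21.1 ± 2.51 CPM. In TE10 KLF4 went from 60.5 ± 3.38 to 49.8 ± 3.03 CPM, while GRHL1 went up from 2.48 ± 0.321 to 4.65 ± 0.295 CPM.

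**Figure D5:**
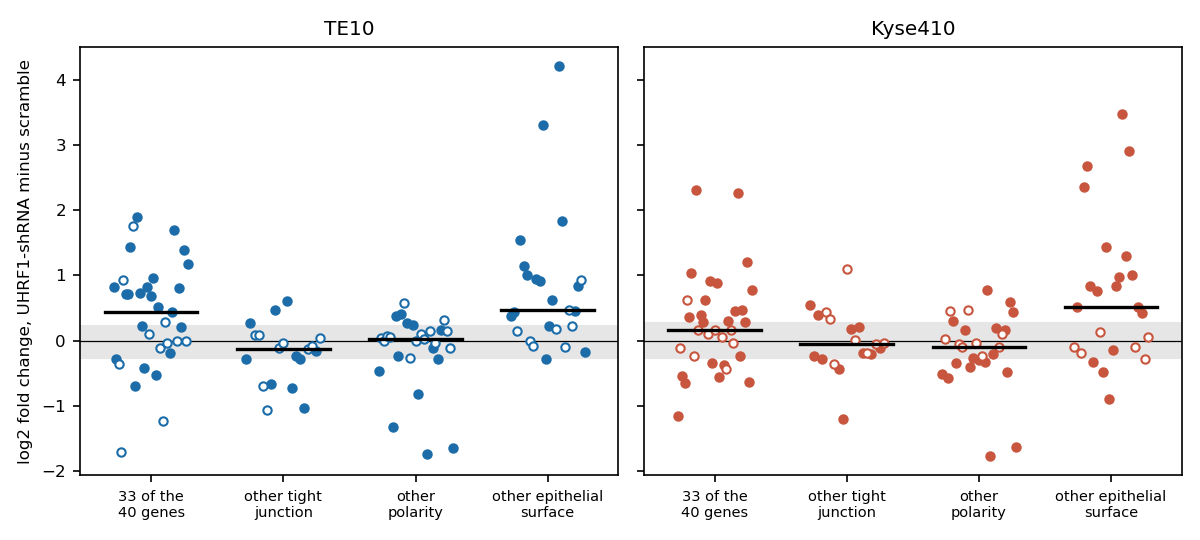
Log2 fold changes with the shRNA of the 33 tested genes and of the tested genes of the 3 other lists, in TE10 and Kyse410. Filled points passed the test, bars are medians, and the grey band holds the middle range (quartiles, −0.26 to 0.22 in TE10 and −0.27 to 0.27 in Kyse410) of all genes. The medians of the other junction and polarity genes lie inside the band in both lines, as does that of the 33 genes in Kyse410 (0.17) but not in TE10 (0.44).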

How the data were processed

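Polyadenylated RNA of 12 libraries was read as raw counts of reads per gene, which the authors deposited as 1 file per library. Per the submitters' processing notes, bcl2fastq 2.19, HISAT2 2.1.0, HTSeq 0.9.1, DESeq2 and GRCh37.p13 were used, with no order or settings. The strand setting is not given in the sources used here. Reads shared with an overlapping gene therefore cannot be told apart. In GENCODE 29, overlaps of at least 5% cover 36.6% of F11R exon bases (AL591806.3, with 4 reads in all), 18.3% of CLDN11 (AC026316.5), 16.6% of MARVELD3 (PHLPP2), 11.9% of PRSS8 (AC009088.3), 10.8% of CLDN7 (AC003688.1), 9.2% of ELF3 (ELF3-AS1 and AL691482.3), 7.7% of PRKCZ (FAAP20), 5.9% of MAL2 (MAL2-AS1), 5.5% and 5.1% of CLDN12 (AC006153.1 and GTPBP10) and 5.3% of PARD6G (AC139100.1). PHLPP2 had 4827 reads over the 12 libraries against 763 for MARVELD3, and FAAP20 had 4641 against 3267 for PRKCZ. MAL2-AS1 had 5931 against 22202 for MAL2. The part of such overlaps in the results of these genes was not tested. Reads that HTSeq left without a gene, 58.89 to 61.48% of a library, were left out.

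Identifiers were named through GENCODE 29 and a gene name table (52339 of 57820), and UHRF1 by hand. The GENCODE exons, used for these overlaps and for CPM per kilobase, are of GRCh38 and not of the build of the counts, so both can differ from the annotation the reads were counted on, and no coordinates from it are printed. CD24 and PECAM1 were not matched. Replicates of a group differed by more than counting error (chi-square per degree of freedom 1.57 to 2.92).

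Counts were fitted with edgeR 4.0.16 (limma 3.58.1, R 4.3.3): filterByExpr by group left 16060 genes, scaled by TMM, in a quasi-likelihood fit of all 12 libraries with 8 residual degrees of freedom. The Benjamini-Hochberg adjustment ran over all 16060 genes, and genes were called under 0.05. There were 4 contrasts: the shRNA response of each line, the Kyse410 response less that of TE10, and Kyse410 against TE10 in the controls. The fit was tested on simulated data. Alternatives were RLE size factors, library totals, DESeq2 1.42.0, no filter on low counts, fits of 2 groups, a replicate block and leaving out each library. Values in every library are given for the 6 called genes with the largest change and a mean of at least 5 CPM in each comparison, and 3 such genes are named per other list, some of which are not reported here. The 40 genes and the lists were chosen with earlier results of these data known. Python 3.11.15, matplotlib 3.10.9, SciPy 1.17.1, numpy 2.4.6 and pandas 2.3.3 made tables and plots.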

Additional observations from a re-analysis of the deposited data

Results flagged for a closer look

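The response to the shRNA differed between the lines, by the interaction term of the edgeR fit, for 13 of the 33 tested genes. This is 39.4%, close to the 38.9% of all genes called for the same term. The log2 difference (Kyse410 minus TE10) was −1.99 for CGN, −1.66 for CLDN9, −1.50 for ELF3, −0.62 for TJP1, −0.53 for MARVELD2, −0.45 for EPCAM, −0.44 for MAL2, −0.35 for CLDN4, −0.33 for SPINT1 and −0.24 for SCRIB. It was 0.85 for EHF, 0.52 for LLGL1 and 0.39 for F11R. The CLDN9 difference rested on few reads: it was called in 4 of the 12 fits that left out 1 library, and was −1.02 (edgeR adjusted p = 0.213) without TE10 scramble replicate 3. For CLDN9 DESeq2 gave −1.65 with an adjusted p of 0.111.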

How the results depend on the processing

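Counts of called genes under the alternatives stayed within 1.5 times the count given, except the 5 genes lower in TE10, which were 3 with DESeq2, and the 2 other epithelial surface genes lower in TE10, which were 1 with RLE, with DESeq2 and without the filter on low counts. Leaving out 1 library at a time gave 19 to 22 called genes in TE10 (15 to 17 higher, 3 to 5 lower), 21 to 24 in Kyse410, 12 to 15 for the difference and 28 to 29 between controls. The replicate block gave 23, 24, 15 and 28 called genes. Deviations of same-numbered libraries correlated by −0.005 to 0.037, and those of differently numbered libraries by −0.058 to 0.033. Taken over all genes, counting error included, these values do not settle whether the numbers pair libraries, and the labels do not say. The sign turned only for genes that were not called. TJP1 and SCRIB in TE10 were 0.01 and 0.02 with RLE and with DESeq2, MPP5 for the difference was 0.01 with library totals and without the filter, and LLGL1 between controls was 0.03 with library totals; the cause was not tested. Over the fits that left out 1 library, the TE10 values ran from −0.06 to 0.07 for TJP1, −0.18 to 0.03 for PARD3, −0.07 to 0.02 for PARD6G and −0.01 to 0.02 for SCRIB. In Kyse410 they ran from −0.52 to 0.07 for CLDN9, −0.02 to 0.13 for OCLN and −0.08 to 0.03 for PRKCI. For the difference they ran from −1.27 to 0.10 for CLDN3, −0.24 to 0.07 for MARVELD3, −0.06 to 0.12 for PARD6B, −0.13 to 0.13 for PRKCZ and −0.11 to 0.07 for MPP5, and between controls from −0.60 to 1.14 for CRB3. Depth limits CLDN3, CLDN9, CRB3 and PARD6A, with at most 66 reads in a library, and CLDN16 in TE10, with 8 reads over the scramble and 2 over the shRNA libraries.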
